A study of Mus musculus with 6 samples.

Results

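The 8 genes followed here mark the pre-B cell and the plasma cell: 4 encode the surrogate light chain or a related protein (Igll1, Vpreb1, Vpreb2 and Vpreb3) and 4 belong to the antibody-secreting stage (Jchain, Xbp1, Prdm1 and Sdc1). They were chosen by name, with their levels in these same libraries already known, so the contrast between the groups is given for them as a description without a test. All 8 members were matched among 24318 gene symbols, and 7 of the 8 passed the filter on low values that left 11063 genes for testing. Each library was made from sorted DN1 (double-negative 1) cells of the mouse thymus, the CD44-positive fraction without CD25, TCRb, CD8a or lineage markers, from mice 5 to 8 weeks old. The labels put 3 libraries in a Tle134-deficient group and 3 in a WT group. Tle134 is read as Tle1, Tle3 and Tle4, genes of Groucho-type corepressors. The sources used here give no Cre driver, no allele and no number of animals per library. A p-value here therefore sets a difference between groups against the spread of libraries within groups, estimated with help from all tested genes. Part of that spread can be technical, and it is not known to be a spread between animals.

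The surrogate light chain stands in for an immunoglobulin light chain while B-cell precursors carry only a heavy chain. Igll1 (lambda 5) supplies its constant-like chain and Vpreb1 or Vpreb2 its variable-like chain, and the pair sits with the mu heavy chain and the Cd79a and Cd79b signalling chains in the pre-B receptor. Expression of Igll1 and Vpreb1 normally ends before the mature B-cell stage. At the other end of B-cell life, Prdm1 (Blimp-1) represses B-cell genes such as Pax5 and Ciita, Xbp1 enlarges the endoplasmic reticulum (ER), Jchain links secreted IgM and IgA into polymers and Sdc1 (CD138, a heparan sulfate proteoglycan) appears on the cell surface. None of the secretory-stage genes is confined to plasma cells: Xbp1 is broadly expressed, Prdm1 is used by T cells and myeloid cells, Jchain is made by some other haematopoietic cells and Sdc1 by epithelia.

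The values are FPKM, which are scaled to transcript length and to each library's mapped total. The deposited intervals imply 1.51e+06 to 4.34e+06 fragments in named loci of the Tle134-deficient-labelled libraries and 1.42e+06 to 3.24e+06 in WT. The whole-locus levels of the targeted genes ran against the labels: Tle1 was at 11.5, 11.3 and 11.1 FPKM in the Tle134-deficient-labelled libraries and at 1.37, 1.19 and 3.61 FPKM in WT. Tle3 and Tle4 also had higher means there, and limma called none of the 3 (adjusted p = 0.0954, 0.234 and 0.726). FPKM over a whole locus cannot show a deleted exon, so the labels were checked only in part, and each direction below follows them as given. Of the markers of the gate, Cd44 was at 32.5 to 74.3 FPKM in the Tle134-deficient-labelled libraries and at 27.5 to 53.4 FPKM in WT. Il2ra, which encodes CD25, was at 4.22 to 7.36 FPKM and 1.69 to 3.59 FPKM, and Cd8a at 0 to 0.419 FPKM and 0.274 to 2.48 FPKM, in that order of groups.

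Surrogate light chain genes reached at most 18.4 FPKM in any library, a value of Vpreb3. Summed over the 4 genes, their level was 23.0, 8.14 and 12.2 FPKM in deficient-labelled replicates 1, 2 and 3, against 12.3, 1.01 and 0 FPKM in WT replicates 1, 2 and 3. The groups overlapped, because WT replicate 1 exceeded deficient-labelled replicates 2 and 3. Averaged over the 4 genes on the log2(FPKM + 1) scale, the Tle134-deficient-labelled libraries stood at 1.61 ± 0.33 and WT at 0.56 ± 0.74 (SD, n = 3 each). In bulk RNA, fewer cells of a type and less RNA per cell cannot be told apart, here or in the results that follow.

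Igll1 (mm9 chromosome 16, 16860764 to 16864078) was at 1.58, 1.29 and 1.42 FPKM in the Tle134-deficient-labelled libraries, against 0, 0.392 and 0 FPKM in WT. It was detected in each deficient-labelled library and in 1 WT library, and the groups did not overlap. It passed the filter of 1 FPKM through the deficient-labelled libraries alone, so the lack of overlap follows from passing it. The counts behind these values are small: the deposited intervals imply 5, 11.9 and 13 fragments in the deficient-labelled libraries and 3.996 in WT replicate 2. On the log2(FPKM + 1) scale the difference was 1.12, with SDs of 0.08 in the deficient-labelled group and 0.28 in WT, and with a pseudocount of 0.1 it was 3.17. Igll1 ranked 9396, 9852 and 9846 by level among the 11063 tested genes of the deficient-labelled libraries, near the bottom of the list.

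Vpreb1 (mm9 chromosome 16, 16868494 to 16869348 as annotated) begins 4415 bases beyond the end of Igll1. It was at 2.999, 1.15 and 0 FPKM in the Tle134-deficient-labelled libraries and at 4.44, 0 and 0 FPKM in WT. Its highest value was thus in WT replicate 1, where the authors' locus was extended to 16870848, and 3 of the 6 libraries were listed at 0. Vpreb2 (mm9 chromosome 16, 17980658 to 17981173), a second copy of the variable-like chain in mice, was at 0, 0 and 6.28 FPKM in the deficient-labelled libraries and at 0, 0.615 and 0 FPKM in WT. It reached 1 FPKM in 1 library and so did not pass the filter.

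No library had both Vpreb copies above 0, and 5 libraries had exactly 1 of them. The 2 genes are close to identical: the reference transcripts of Vpreb1 (766 bases) and Vpreb2 (759 bases) differ at 20 of 759 aligned positions, an identity of 97.4%, and share a run of 196 bases. Of the 710 windows of 50 bases in Vpreb2, 233 (32.8%) occur unchanged in Vpreb1, so reads from them could be given to either gene. The likeness reaches past the transcript start. The 2 stretches shown here are the aligned 156 bases of the RefSeq promoter windows, and capitals mark the 3 positions where they differ. They lie at chr16:16869206-16869361 on the minus strand for Vpreb1 and chr16:17980315-17980470 on the plus strand for Vpreb2 in GRCm38.p6, a different build from the mm9 of the deposited tables.
Vpreb1: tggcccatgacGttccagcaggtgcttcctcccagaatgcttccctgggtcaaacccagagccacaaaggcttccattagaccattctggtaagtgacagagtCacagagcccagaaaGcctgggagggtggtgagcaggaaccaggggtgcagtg
Vpreb2: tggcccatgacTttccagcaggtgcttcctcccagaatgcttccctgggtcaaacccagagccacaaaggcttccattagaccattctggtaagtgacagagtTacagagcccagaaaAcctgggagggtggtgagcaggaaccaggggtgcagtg

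Added together, the 2 copies stood at 2.999, 1.15 and 6.28 FPKM in the Tle134-deficient-labelled libraries and at 4.44, 0.615 and 0 FPKM in WT. WT replicate 1 exceeded 2 of the 3 deficient-labelled libraries, so the summed copies overlapped as the single genes did. The deposited intervals around the single values are wide, from 3.39 to 9.17 FPKM for Vpreb2 in deficient-labelled replicate 3 and from 1.6 to 7.28 FPKM for Vpreb1 in WT replicate 1.

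**Figure D1:**
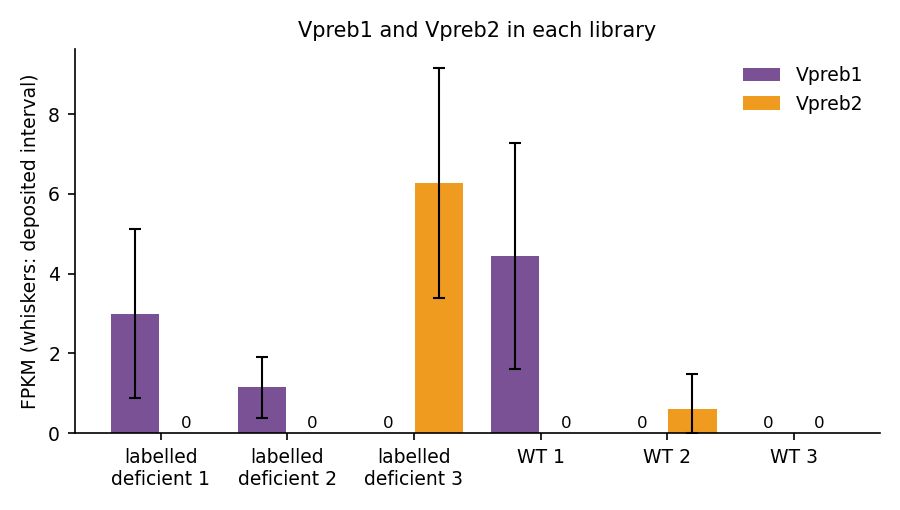
FPKM of Vpreb1 and Vpreb2 in the 3 Tle134-deficient-labelled libraries and the 3 WT libraries, as bars from 0, with whiskers for the deposited lower and upper bounds and a printed 0 where a gene is listed at 0. No library shows both copies, and WT replicate 3 shows neither.

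Vpreb3 (mm9 chromosome 10, 75411057 to 75412391) encodes a relative that binds newly made heavy chains inside the cell, and its expression lasts into later B-cell stages than that of Igll1. It was the most abundant of the 4 in 3 of the 6 libraries, at 18.4, 5.69 and 4.48 FPKM in the Tle134-deficient-labelled libraries and at 7.90, 0 and 0 FPKM in WT. Each deficient-labelled library had a value above 0, and WT replicate 1 lay above 2 of them. The implied fragments were 33.4, 29.9 and 22.9 in the deficient-labelled libraries and 16.2 in WT replicate 1. The log2(FPKM + 1) difference was 2.11, and it was 3.16 without WT replicate 1 and 4.19 with a pseudocount of 0.1.

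The promoter windows of the members (300 bases around the annotated start, RefSeq, GRCm38.p6) were searched on both strands for 4 motifs of B-cell and ER-stress factors. The octamer ATTTGCAT, known from immunoglobulin promoters, was found in 1 of the 8 members, Vpreb3, and in 1.74% of all 32851 windows. The E-box CAGGTG was found in 6 of the 8, all but Vpreb3 and Sdc1, and in 20.2% of all windows. Vpreb1 and Vpreb2 hold the same CAGGTG in the near-identical stretch shown above, so their matches are not independent. Neither the EBF palindrome (0.904% of windows) nor the unfolded-protein element TGACGTGG (0.676%) was found in a member. The windows of Vpreb3, with the octamer in capitals, and of Jchain, with the E-box in capitals on the opposite strand as CACCTG, are shown because Vpreb3 alone held the octamer and Jchain had the largest difference among the members. They lie at chr10:75948050-75948349 on the plus strand and chr5:88527848-88528147 on the minus strand. No binding was measured, and a match is a description of the letters only.
Vpreb3: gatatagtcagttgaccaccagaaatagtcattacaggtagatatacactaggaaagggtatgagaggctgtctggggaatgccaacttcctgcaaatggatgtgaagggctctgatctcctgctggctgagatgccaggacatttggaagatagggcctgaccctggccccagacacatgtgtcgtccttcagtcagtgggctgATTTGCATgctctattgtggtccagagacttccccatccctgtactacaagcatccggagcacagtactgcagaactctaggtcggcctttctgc
Jchain: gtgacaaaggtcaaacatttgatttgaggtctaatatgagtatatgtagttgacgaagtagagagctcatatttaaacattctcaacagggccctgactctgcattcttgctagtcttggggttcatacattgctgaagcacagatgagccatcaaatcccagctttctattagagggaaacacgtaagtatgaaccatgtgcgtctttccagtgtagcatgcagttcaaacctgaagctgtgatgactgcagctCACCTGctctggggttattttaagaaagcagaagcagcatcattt

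Secretory-stage genes did not move as 1 group: Jchain was far lower in the Tle134-deficient-labelled libraries, Sdc1 was higher, and Xbp1 and Prdm1 overlapped between the groups. Averaged over the 4 genes, the deficient-labelled libraries stood at 2.73 ± 0.50 and WT at 3.18 ± 0.74 on the log2(FPKM + 1) scale (SD, n = 3 each), a difference smaller than the spread.

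Jchain (mm9 chromosome 5, 88948834 to 88956922) was at 0, 0.148 and 9.72 FPKM in the Tle134-deficient-labelled libraries, against 35.9, 25.7 and 240 FPKM in WT. Every WT library lay above every deficient-labelled one, and the spread inside each group was wide, with deficient-labelled replicate 3 and WT replicate 3 each the highest of their group. The implied fragments were 0, 3.996 and 253 in the deficient-labelled libraries, against 396, 753 and 3674 in WT, so the WT values rest on more reads than those of any surrogate light chain gene. Jchain ranked 833, 1364 and 203 among the 11063 tested genes in WT, and 5377 in deficient-labelled replicate 3, its highest place in that group. The log2(FPKM + 1) difference was -4.75, and leaving out WT replicate 3 gave -3.76 and leaving out deficient-labelled replicate 3 gave -5.85.

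Deficient-labelled replicate 3 also had the highest summed level of myeloid genes, and 7 of the 10 were highest in it, while Lyz2, S100a8 and Cd68 were highest in WT replicate 3. The 10 genes of that list summed to 96.2, 108 and 1152 FPKM in the deficient-labelled libraries and to 115, 278 and 444 FPKM in WT, with much of the highest sum in 2 granulocyte genes. S100a9 was at 0, 0 and 333 FPKM in the deficient-labelled libraries and at 0, 0 and 27.0 FPKM in WT, and Mpo at 53.7, 76.2 and 589 FPKM and at 84.0, 232 and 257 FPKM. Of 7 myeloid genes tested with limma, 0 were called and 1 had an unadjusted p under 0.05, against 1109 of all 11063 genes (10%). Their part in the Jchain value of that library was not tested.

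Sdc1 (mm9 chromosome 12, 8778202 to 8800493) was at 14.9, 16.9 and 8.66 FPKM in the Tle134-deficient-labelled libraries and at 0.721, 1.30 and 5.24 FPKM in WT. The groups did not overlap, and deficient-labelled replicate 3 and WT replicate 3 came nearest to each other. The means were 13.5 ± 4.29 FPKM and 2.42 ± 2.46 FPKM (SD, n = 3 each), a log2(FPKM + 1) difference of 2.27. The implied fragments were 205, 680 and 342 in the deficient-labelled libraries and 9.66, 56.0 and 121 in WT.

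Markers of epithelium, another source of Sdc1, were mixed. The 10 genes summed to 42.2, 20.4 and 23.3 FPKM in the Tle134-deficient-labelled libraries and to 14.7, 7.18 and 9.77 FPKM in WT. Of the 10, 6 had a higher and 4 a lower mean in the deficient-labelled libraries, and 9 overlapped between the groups. Aire, Foxn1, Psmb11 and Cldn4 were the lower ones, and Krt8, Krt18 and Cdh1 made up most of the higher sum of each deficient-labelled library. The highest sum of each group was in replicate 1, whereas Sdc1 was highest in deficient-labelled replicate 2 and WT replicate 3. The simple keratin Krt18 was at 18.6, 7.15 and 6.72 FPKM against 5.26, 1.29 and 2.09 FPKM, and the cadherin Cdh1 at 2.76, 3.02 and 13.4 FPKM against 1.06, 1.43 and 4.48 FPKM. The keratins Krt5 and Krt14 reached at most 0.0707 and 0.707 FPKM, and Epcam was at 1.84 to 4.05 FPKM and 2.24 to 2.97 FPKM. Of 3 epithelial genes tested, limma called 0, and 1 (Krt18) had an unadjusted p under 0.05, against 10% of all tested genes. The part of the epithelial genes in the Sdc1 difference was not tested.

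Xbp1 (mm9 chromosome 11, 5420644 to 5425996) was at 11.2, 32.3 and 25.6 FPKM in the Tle134-deficient-labelled libraries and at 17.8, 14.5 and 34.1 FPKM in WT. The ranges lay almost on each other, and the means of 23.0 ± 10.8 and 22.1 ± 10.5 FPKM (SD, n = 3 each) differed by less than the spread. FPKM does not separate the spliced, active Xbp1 messenger from the unspliced form. Prdm1 (mm9 chromosome 10, 44156980 to 44178554 as annotated) was at 2.36, 0.822 and 2.33 FPKM in the deficient-labelled libraries and at 1.67, 0.441 and 0.296 FPKM in WT. WT replicate 1 lay above deficient-labelled replicate 2, and every library was under 3 FPKM. The means were 1.83 ± 0.877 and 0.803 ± 0.757 FPKM (SD, n = 3 each), a log2 difference of 0.68 with a pseudocount of 1 and 1.28 with 0.1.

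**Figure D2:**
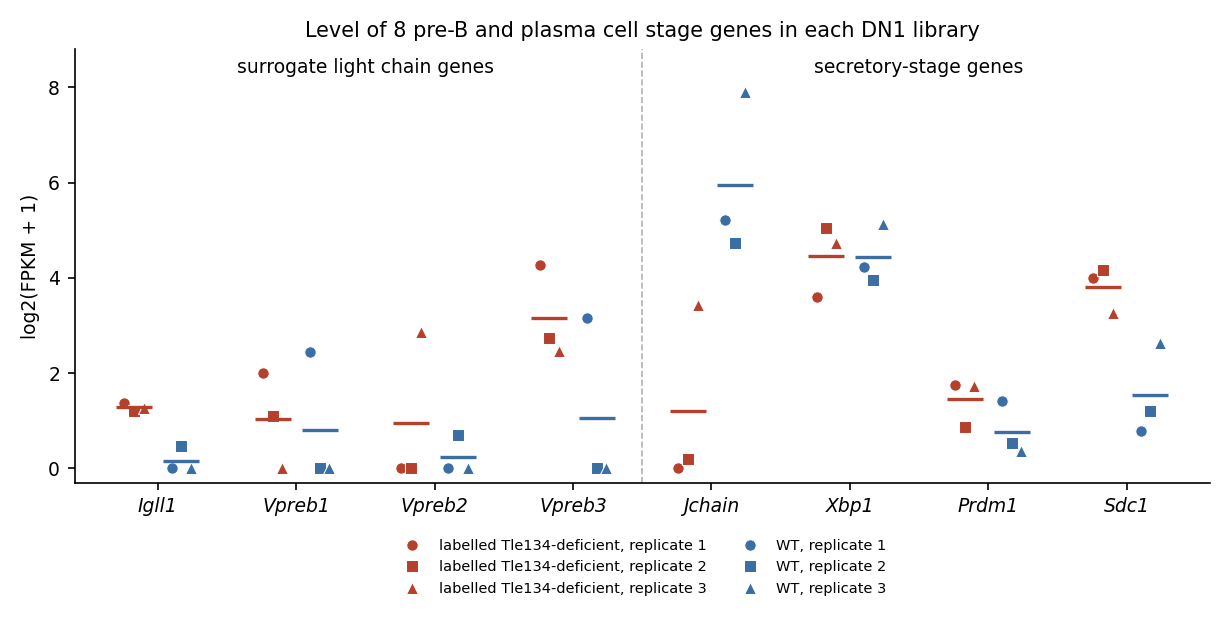
Level of each of the 8 genes on the log2(FPKM + 1) axis, with 1 point per library (labelled Tle134-deficient left of WT, replicate by symbol) and a horizontal line at each group mean. Igll1 and Sdc1 lie higher and Jchain lower in the Tle134-deficient-labelled libraries without overlap, and the other 5 genes overlap between the groups.

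Among the 11063 tested genes, the groups did not overlap for 8.67% in the higher direction and 6.56% in the lower direction. Igll1 and Sdc1 did not overlap in the higher direction and Jchain in the lower, and since the members were chosen with this contrast known nothing is read from their number. For Igll1 the lack of overlap was also set by the filter, which it passed in the deficient-labelled libraries alone.

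Other parts of the pre-B receptor and its signalling pathway were abundant in the Tle134-deficient-labelled libraries, and some of them rose. Of 14 genes of the pathway, 13 could be tested alone with limma. At an adjusted p under 0.05 over all genes, 5 rose in the Tle134-deficient-labelled libraries, 0 fell and 8 did not pass, while 0.642% of all tested genes were called higher and 0.108% lower. Cd79a, a signalling chain shared by the pre-B receptor and the mature B-cell receptor, was at 287, 209 and 161 FPKM in the Tle134-deficient-labelled libraries, against 8.95, 6.88 and 38.6 FPKM in WT (log2 difference 3.88 ± 0.63, SE, limma adjusted p = 0.0305). Among the others that rose, its partner Cd79b, the kinase Syk and the adaptor Blnk had log2 differences of 3.48, 2.68 and 2.80. The median over the 13 genes was 2.05, against 0.04 over all tested genes. Irf4, a factor used both in pre-B cells and in plasma cells, was at 35.7, 74.4 and 35.3 FPKM against 8.46, 11.0 and 4.38 FPKM and did not pass (limma adjusted p = 0.0534).

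Set against Cd79a in the same library, the members behaved differently. The summed surrogate light chain was 8.00%, 3.88% and 7.57% of Cd79a in the Tle134-deficient-labelled libraries, and 138%, 14.6% and 0% in WT. Sdc1 was 5.19%, 8.05% and 5.38% of Cd79a in the deficient-labelled libraries and 8.06%, 18.8% and 13.6% in WT. Jchain stood at 0, 0.000706 and 0.0604 times Cd79a in the deficient-labelled libraries, against 4.01, 3.73 and 6.22 times in WT. Cd79a itself had a log2 difference of 3.88 and Sdc1 one of 2.27, so the lower Sdc1 ratio comes from the denominator. The same denominator widens the contrast of Jchain.

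Genes of the early B-cell stages did not move together. Of 15 tested, 2 rose (Ebf1 and Pax5, the factors that specify and commit the B lineage), 1 fell (Dntt) and 12 did not pass, with a median log2 difference of -0.52. Over all tested genes, 0.642% were called higher and 0.108% lower. Ebf1 was at 29.5, 38.4 and 7.45 FPKM in the Tle134-deficient-labelled libraries against 0.683, 2.02 and 0.848 FPKM in WT (limma adjusted p = 0.0473). Pax5 was at 44.3, 61.5 and 29.2 FPKM against 1.73, 2.30 and 7.72 FPKM (limma adjusted p = 0.0279). Dntt, which adds bases at joints of antigen receptor genes in both lymphocyte lineages, was at 15.9, 5.98 and 1.99 FPKM against 93.3, 207 and 257 FPKM (limma adjusted p = 0.0279). Rag1, the recombinase that is active in pro-B and pre-B cells, was at 4.56, 2.59 and 1.45 FPKM against 1.27, 1.36 and 4.38 FPKM and did not pass (limma adjusted p = 0.96). Several members of this list are shared with early T-cell progenitors. Sox4, one of them, was at 22.2, 21.1 and 24.0 FPKM against 79.8, 71.4 and 84.0 FPKM (limma adjusted p = 0.0839).

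Markers of mature B cells were higher. Of the 18 tested, 17 did not overlap between the groups, against 8.67% of all tested genes in the higher direction. Of the 18, 12 rose and 6 did not pass, while 0.642% of all tested genes were called higher. The median log2 difference of the 18 was 3.63. Cd22, an inhibitory coreceptor, was at 61.2, 65.1 and 40.3 FPKM in the Tle134-deficient-labelled libraries against 1.99, 2.72 and 1.34 FPKM in WT (log2 difference 4.22 ± 0.41, SE, limma adjusted p = 0.0154). Fcer2a and Fcmr had differences of 4.01 and 4.02. Of 3 germinal centre genes tested, 1 rose (Rgs13, at 10.4, 44.9 and 11.5 FPKM against 0 in each WT library). Rgs13 passed the filter through the deficient-labelled libraries alone. These lists were picked with earlier results on the same libraries known.

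With all libraries, limma called 8 of the 28 early B and pre-B receptor genes tested. It called 0 of them when any 1 of replicates 1 and 2 of either group was left out, with 877 to 1113 of all genes at an unadjusted p under 0.05. The 12 calls of the mature B-cell list became 0 without replicate 1 of either group or without deficient-labelled replicate 2, and 1 without WT replicate 2. The germinal centre call was also lost in each of these fits.

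**Figure D3:**
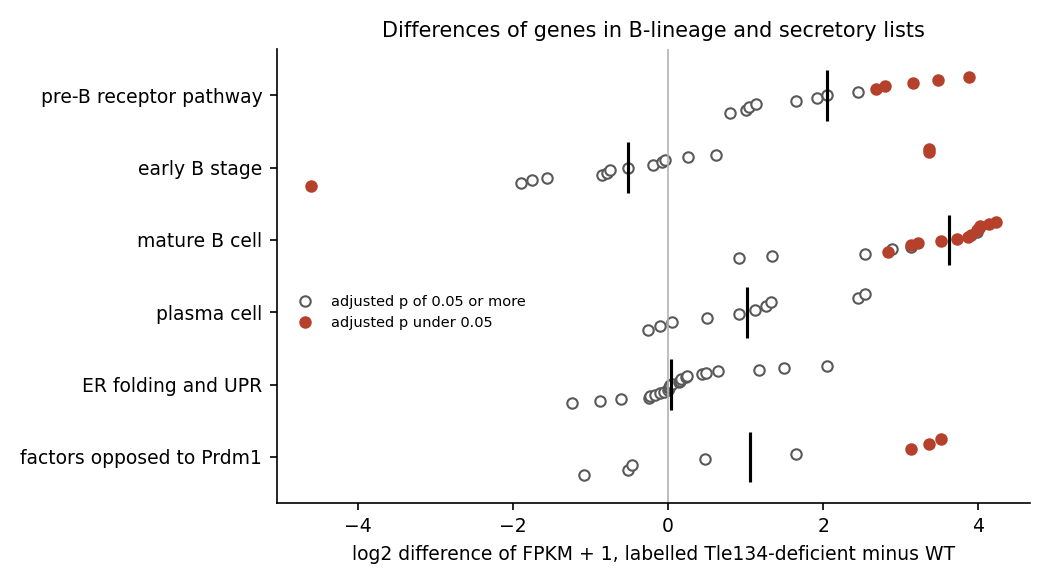
Log2 difference of FPKM + 1 (labelled Tle134-deficient minus WT) for each tested gene of 6 lists other than the 8 members, with 1 point per gene, filled where the limma adjusted p is under 0.05, and a vertical line at each list's median. The mature B-cell list has a median of 3.63 and the plasma cell list 1.01, and the ER list is centred at 0.04.

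Other genes of the plasma cell gave no call. Of 10 tested with limma, 0 rose and 0 fell. Against 10% of all tested genes, 2 of the 10 (Irf4 and Pou2af1) had an unadjusted p under 0.05. Both are also genes of other B-cell stages. Pou2af1, the B-cell coactivator of octamer-binding factors, was at 33.4, 36.7 and 21.8 FPKM in the Tle134-deficient-labelled libraries against 3.20, 2.06 and 10.7 FPKM in WT (limma adjusted p = 0.0772), and it was called without WT replicate 3 (adjusted p = 0.0296). Tnfrsf17 (BCMA), a survival receptor of plasma cells, was listed at 0 in all 6 libraries. Mzb1, an ER chaperone of cells that make antibody, was at 47.2, 25.6 and 48.6 FPKM against 10.6, 9.01 and 52.4 FPKM (limma adjusted p = 0.645). Derl3, of ER-associated degradation, was at 5.67, 0.837 and 2.55 FPKM against 0, 1.19 and 0.441 FPKM.

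The folding machinery of the ER, much of it controlled by Xbp1, was likewise without a call. Of 24 genes tested with limma, 0 were called and 3 had an unadjusted p under 0.05, against 10% of all tested genes. The median log2 difference was 0.04, the same as over all tested genes. Hspa5 (BiP), the main ER chaperone, was at 134, 81.5 and 171 FPKM in the Tle134-deficient-labelled libraries against 101, 102 and 178 FPKM in WT (limma adjusted p = 0.999). Herpud1, induced by ER stress, was at 26.8, 24.4 and 36.4 FPKM against 22.4, 37.3 and 184 FPKM (limma adjusted p = 0.768). The libraries differed within each group: the 26 genes of the list summed to 1315, 787 and 1809 FPKM in the deficient-labelled libraries and to 885, 848 and 1937 FPKM in WT. WT replicate 3, the highest there, was also the highest WT library for Jchain, Xbp1, Sdc1 and Mzb1. The same library was the highest of WT for Pou2af1, Pax5, Cd79a and Ms4a1 and the lowest for Irf4.

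Of the factors that Prdm1 represses or that oppose it, 8 could be tested, with 5 log2 differences above 0 and 3 below. Of the 8, 3 rose (Pax5, Ciita and Spib), while 0.642% of all tested genes were called higher. All 3 calls were lost when replicate 1 or 2 of either group was left out. Ciita, the class II transactivator, was at 55.9, 66.9 and 29.1 FPKM in the Tle134-deficient-labelled libraries against 1.66, 4.34 and 4.38 FPKM in WT (limma adjusted p = 0.0279). Bach2 was at 24.6, 19.3 and 3.15 FPKM against 1.81, 4.56 and 3.53 FPKM (limma adjusted p = 0.451). Bcl6 was at 7.88, 11.0 and 4.45 FPKM against 4.46, 11.8 and 2.08 FPKM (limma adjusted p = 0.892). Myc was at 19.7, 32.8 and 45.4 FPKM against 47.6, 44.2 and 42.1 FPKM (limma adjusted p = 0.792). Mitf went the other way without overlap, at 1.17, 0.824 and 0.217 FPKM against 2.55, 2.77 and 2.40 FPKM (limma adjusted p = 0.458).

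**Figure D4:**
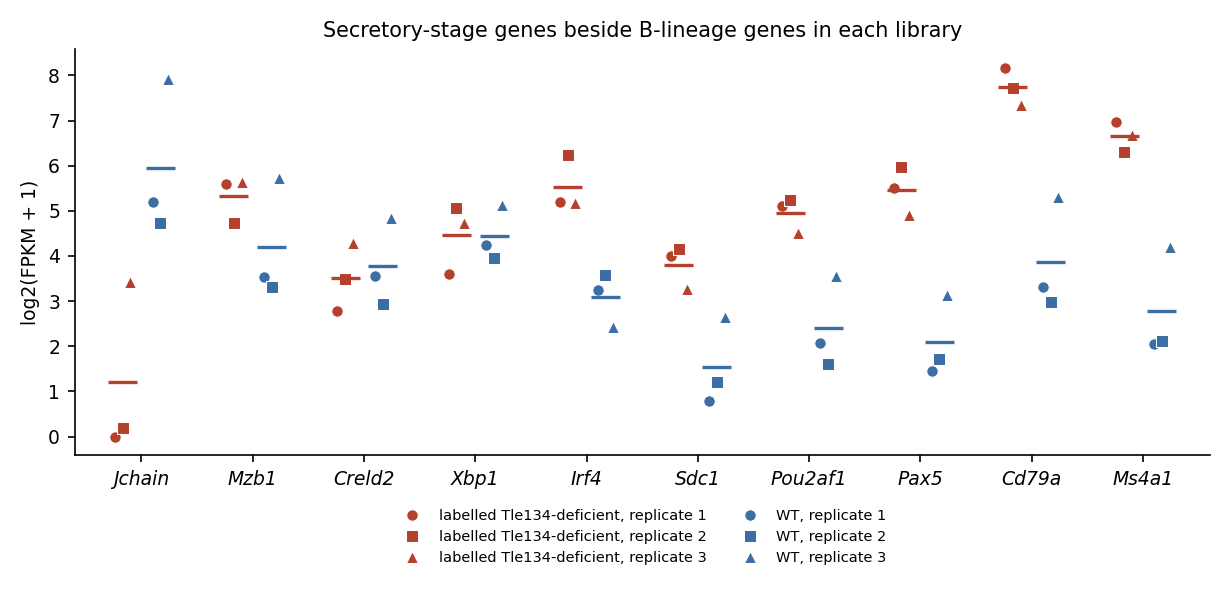
Level of 10 secretory-stage and B-lineage genes on the log2(FPKM + 1) axis, with 1 point per library (labelled Tle134-deficient left of WT, replicate by symbol) and a line at each group mean. Between the groups, Jchain runs opposite to Sdc1, Pou2af1, Pax5, Cd79a and Ms4a1, while Mzb1, Creld2 and Xbp1 overlap. Within WT, replicate 3 is the highest for Jchain and also for Sdc1, Pou2af1, Pax5, Cd79a and Ms4a1.

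Other cells that use these genes gave no called marker. The 10 plasmacytoid dendritic cell genes, markers of a type that can express Jchain, summed to 253, 235 and 188 FPKM in the Tle134-deficient-labelled libraries and to 163, 131 and 154 FPKM in WT. Of the 10, limma called 0, and 5 had an unadjusted p under 0.05, against 10% of all tested genes. Of these 5, Tcf4, Irf8, Ly6d and Irf7 were higher in the deficient-labelled libraries and Ccr9 was lower, each without overlap between the groups. Siglech, a defining gene of that type, was at 3.54, 1.93 and 0.362 FPKM against 8.38, 0.233 and 0 FPKM. Of 9 tested genes of gamma-delta and IL-17-type T cells 0 were called, with 2 at an unadjusted p under 0.05 (Sox13 and Il1r1, both lower). Of 10 T-lineage genes 0 were called, with 3 at that level, and of 5 NK and cytotoxic genes 0, with 4. In the deficient-labelled libraries Cd247 and Gata3 of the 3 were lower and Cd2 was higher. Eomes, Fasl and Klrd1 of the 4 were lower and Gzmb was higher, each without overlap. Eomes and Fasl passed the filter through the WT libraries alone, so their lack of overlap follows from passing it. Of all tested genes, 8.67% did not overlap in the higher direction and 6.56% in the lower. The T-lineage median was -0.96 and the NK and cytotoxic median -1.75. Ptcra, which encodes the T-cell counterpart of the surrogate light chain, was at 0, 1.38 and 0 FPKM against 0, 0.299 and 0.463 FPKM. The part of these cells in the members' values was not tested.

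The genes most like each member were found over the 6 libraries by the root-mean-square distance between profiles of log2(FPKM + 1), each centred on its own mean. Nearest to Jchain was Cpa3, a protease gene known from mast cells, at 0.992, 0.622 and 21.5 FPKM in the Tle134-deficient-labelled libraries and at 54.4, 35.04 and 110 FPKM in WT (distance 0.72, against a median of 2.79 over all tested genes). The joined locus of 5730408K05Rik and Mir5136 (0.88) and Rab26os (0.997) came next. Nearest to Sdc1 were Ms4a4c (0.27), Pou2af1 (0.29) and Fam43a (0.30), with a median of 1.36 over all genes. Ms4a4c was at 21.0, 12.5 and 8.04 FPKM in the deficient-labelled libraries and at 0.568, 1.20 and 5.97 FPKM in WT.

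Nearest to Igll1 were St3gal6 (0.12), Brwd1 (0.17) and Gm608 (0.17), and nearest to Vpreb3 were Rnls (0.54), Adam23 (0.66) and Anks3 (0.67). Vpreb1 was closest to Siglech (0.24), Egf (0.28) and She (0.31), all of them under 10 FPKM in every library. Xbp1 was closest to Minpp1 (0.11), Arpc1a (0.14) and Nprl2 (0.14), and Prdm1 to Usp18 (0.15), Plekhg3 (0.15) and the joined locus of Catsperg1 and Kcnk6 (0.21). These distances rest on 6 libraries and carry no statement about shared function.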

How the data were processed

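RNA from sorted DN1 thymocytes was sequenced in 6 libraries. The tools named, per the submitters' processing notes and with no order, were TopHat2 2.1.1, featureCounts 2.0.1 and Trimmomatic 0.38, with mm9 as the build. The deposited tables hold FPKM and its bounds for each locus, per the file headers. Their layout is that of Cufflinks, but the sources used here give no version, annotation or strand setting. Read totals are unknown. A fragment number was derived as the square of FPKM over its SD, with 2 SD taken as the distance to the upper bound, which covers counting error only. An exact 0 can be a failed estimate, so genes with zeros are given library by library.

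Rows were matched by symbol, split at commas and summed. Symbols sharing a row in any library were joined (23401 units), and no member was joined. Genes at 1 FPKM or more in at least 3 libraries were fitted as log2(FPKM + 1) with limma 3.58.1 in R 4.3.3 (group only, trend, robust), with Benjamini-Hochberg adjustment over 11063 genes and a threshold of 0.05. This was the stated substitute for a count test, since the files hold FPKM. The fit was tested on simulated data. The difference understates low genes. Starts were raised by 1. Python 3.11.15, pandas 2.3.3 and Biopython 1.88 were used.

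The members and lists were chosen with earlier results of these data known. Named genes are the 8 members, up to 4 genes per list (called ones first, then by size of difference) or genes set beside a member for their role, the 3 nearest profiles per member and the targeted genes. Alternatives were the pseudocount, the filter, scaling to the upper quartile, limma's options, unjoined symbols, a replicate block and each library left out. Some genes of the lists are counted but not reported here by name.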

Additional observations from a re-analysis of the deposited data

How the results depend on the processing

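Of 11063 genes, limma called 71 higher and 12 lower in the libraries labelled Tle134-deficient. Without a filter on low values it called 0 higher, 0 lower and 0 early B and pre-B receptor genes (1181 of 18943 genes at an unadjusted p under 0.05). The lower count was 3 with a pseudocount of 0.1 and 4 without limma's trend and robust step, where 5 early B and pre-B receptor genes were called against 8. With single libraries left out, the higher count ran from 0 to 56, the lower from 0 to 11, the early B and pre-B receptor count from 0 to 5 and the plasma cell and ER count from 0 to 1; it was 1 without WT replicate 3. The mean difference of the surrogate light chain genes ran from 0.76 to 1.46 and that of the secretory-stage genes from -0.73 to -0.03. With a pseudocount of 0.1 the surrogate light chain difference was 2.36 against 1.04, since zeros weigh more there, and Jchain stood at -6.60 against -4.75. Vpreb1, Vpreb2 and Xbp1 changed sign with a library left out (-0.26 to 1.04, -0.23 to 1.20 and -0.27 to 0.45), and Vpreb3 and Prdm1 did not. The groups of Igll1, Jchain and Sdc1 did not overlap, so leaving out 1 library could not change their sign. Scaling to the upper quartile moved the median of all genes from 0.04 to -0.09. With the replicate number as a block 1 gene was higher, 1 lower and 0 of the early B and pre-B receptor genes were called. Deviations of same-numbered libraries correlated at 0.08, 0.18 and 0.17 for replicates 1, 2 and 3, and each library correlated best with its own number, a hint from the data and not from the design. The causes of these changes were not tested unless stated. Low fragment numbers limit Igll1, Vpreb1 and Vpreb2 most.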
